A study of Mus musculus with 2 samples.

Results

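The replication-dependent histone genes are the clustered genes that supply the linker histone H1 and the core histones H2A, H2B, H3 and H4 while DNA is copied. Members were taken as the protein-coding genes of GENCODE mouse release M21 (on GRCm38, also called mm10) whose symbols begin with Hist1h, Hist2h, Hist3h or Hist4h. Of 67 such genes, 64 were matched by Ensembl identifier to rows of both gene tables, among 43346 rows with Ensembl identifiers of which 21474 were protein-coding. Hist1h2bm, Hist1h2bh and Hist2h2bb were not analysed here. The members comprised 6 H1, 18 H2A, 15 H2B, 12 H3 and 13 H4 genes, and 52 of them lay in the Hist1 cluster on chromosome 13.

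Total RNA from mouse forebrain, with the shortest RNAs left out, was sequenced as 2 libraries, each from 10 ng of RNA with spike-in controls added. Both came from healthy B6NCrl embryos aged 10.5 days, with males and females pooled and no treatment or altered allele named. Replicate 1 was a pool of 69 embryos and replicate 2 a separate pool of 51, so variation between embryos was averaged within a pool. With a single group and 2 libraries, an exact two-sided sign flip test cannot go below p = 0.5, and none was made. Values are given per library, or as mean ± SD (n = 2), and the intervals and limits shown reflect counting error alone.

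Most messenger RNAs end in a poly(A) tail, whereas replication-dependent histone mRNAs are cut shortly after a conserved stem-loop and normally carry no tail. The stem-loop binding protein, Slbp, holds this structure during 3′ end formation, export and translation, and the mRNAs are degraded when DNA synthesis stops. In the early forebrain most cells are cycling progenitors of the ventricular zone, which need new histones in every S phase. Levels below are TPM, a share of all transcripts after adjustment for length, so orders by TPM depend on the annotated length of each gene. Because the tissue was measured in bulk, fewer cells of a type and less RNA per cell cannot be told apart.

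The stem-loop was present after the stop codon of 38 members in the M21 transcript sequences, in 25 transcripts of H1, H2A, H2B and H3 genes as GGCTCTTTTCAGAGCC. H4 genes carried other forms, of which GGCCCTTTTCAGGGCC was present in 7 transcripts. Relative to the first form, counted from its 5′ end, these H4 genes have the substitutions T4C and A13G, which change both strands of the stem together. A stem-loop of any of these forms was found in 0.00917% of the 141695 other M21 transcripts. The following sequences, from GENCODE M21 on GRCm38, show the stem-loop in capitals and the 14 bases before it in lower case, for leading genes, for Hist1h2ao as the identical partner of Hist1h2ap, and for other members to compare with them.
Hist1h2ap, chr13:21833029-21833058, minus strand: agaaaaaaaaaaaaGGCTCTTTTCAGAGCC
Hist1h2ao, chr13:21810884-21810913, plus strand: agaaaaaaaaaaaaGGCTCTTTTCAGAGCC
Hist1h2ae, chr13:23570668-23570697, minus strand: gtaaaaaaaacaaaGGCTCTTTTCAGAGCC
Hist1h2ag, chr13:22042483-22042512, minus strand: tgatcgccaacaaaGGCTCTTTTCAGAGCC
Hist1h1e, chr13:23621782-23621811, minus strand: cccaacaacccaaaGGCTCTTTTCAGAGCC
Hist3h2ba, chr11:58949335-58949364, plus strand: gcccccaacccaaaGGCTCTTTTCAGAGCC
Hist1h4d, chr13:23581936-23581965, plus strand: acccaaaaaccaaaGGCCCTTTTCAGGGCC
Hist1h4i, chr13:22040966-22040995, minus strand: caatgctacttaaaGGCCCTTTTTAGGGCC
Hist1h4b, chr13:23757352-23757381, plus strand: taactgttacaaaaGGTCCTTTTCAGGACC
The Hist1h4i form differs from the first by T4C, C10T and A13G, the Hist1h4b form by C3T, T4C, A13G and G14A, and that of Hist1h4a by T4C, T8C and A13G. Each of these changes on the left arm of the stem is matched by a change on the right arm, and T8C and C10T lie in the loop. Hist2h2ac alone among H2A genes carried C10T, and Hist1h3g alone among H3 genes carried T8C with C10T.

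Depth was 43021202 and 39215064 expected counts for replicates 1 and 2, and the members took 77898 and 71157 of these. All 7 forebrain markers were at 1 TPM or more in both libraries, led by Lhx2, and none of 6 hindbrain Hox genes was. Markers of other cells were also detected: 7 of 7 erythroid, 5 of 5 mesenchymal and 5 of 5 neuronal genes. All 7 erythroid and all 5 neuronal genes were lower in replicate 2, with a median log2 ratio of -0.41 and -0.45. The erythroid sum was 17384 TPM in replicate 1 and 12875 in replicate 2, and the neuronal sum 340.7 and 261.0.

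Histone genes were widely detected, and a small number of them carried most of the signal. Of the 64 members, 51 (79.7%) reached 1 TPM in both libraries, beside 57.3% of protein-coding genes. Together the members took 7116 TPM in replicate 1 and 7237 in replicate 2. Without Hist1h2ap the sum was 1265 and 1231 TPM, so 82.6% of the signal was assigned to this H2A gene. Its coding sequence equals that of Hist1h2ao, and the split of reads between the pair rests on the ends of their models, as described below. The 3 leading members, Hist1h2ap, Hist1h4d and Hist1h2ae, held 89.7% and 90.3%. The median member stood at 6.06 TPM in replicate 1 and 6.21 in replicate 2. By mean TPM, 3 members lay above 100, 21 between 10 and 100, 29 between 1 and 10 and 11 below 1.

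**Figure D1:**
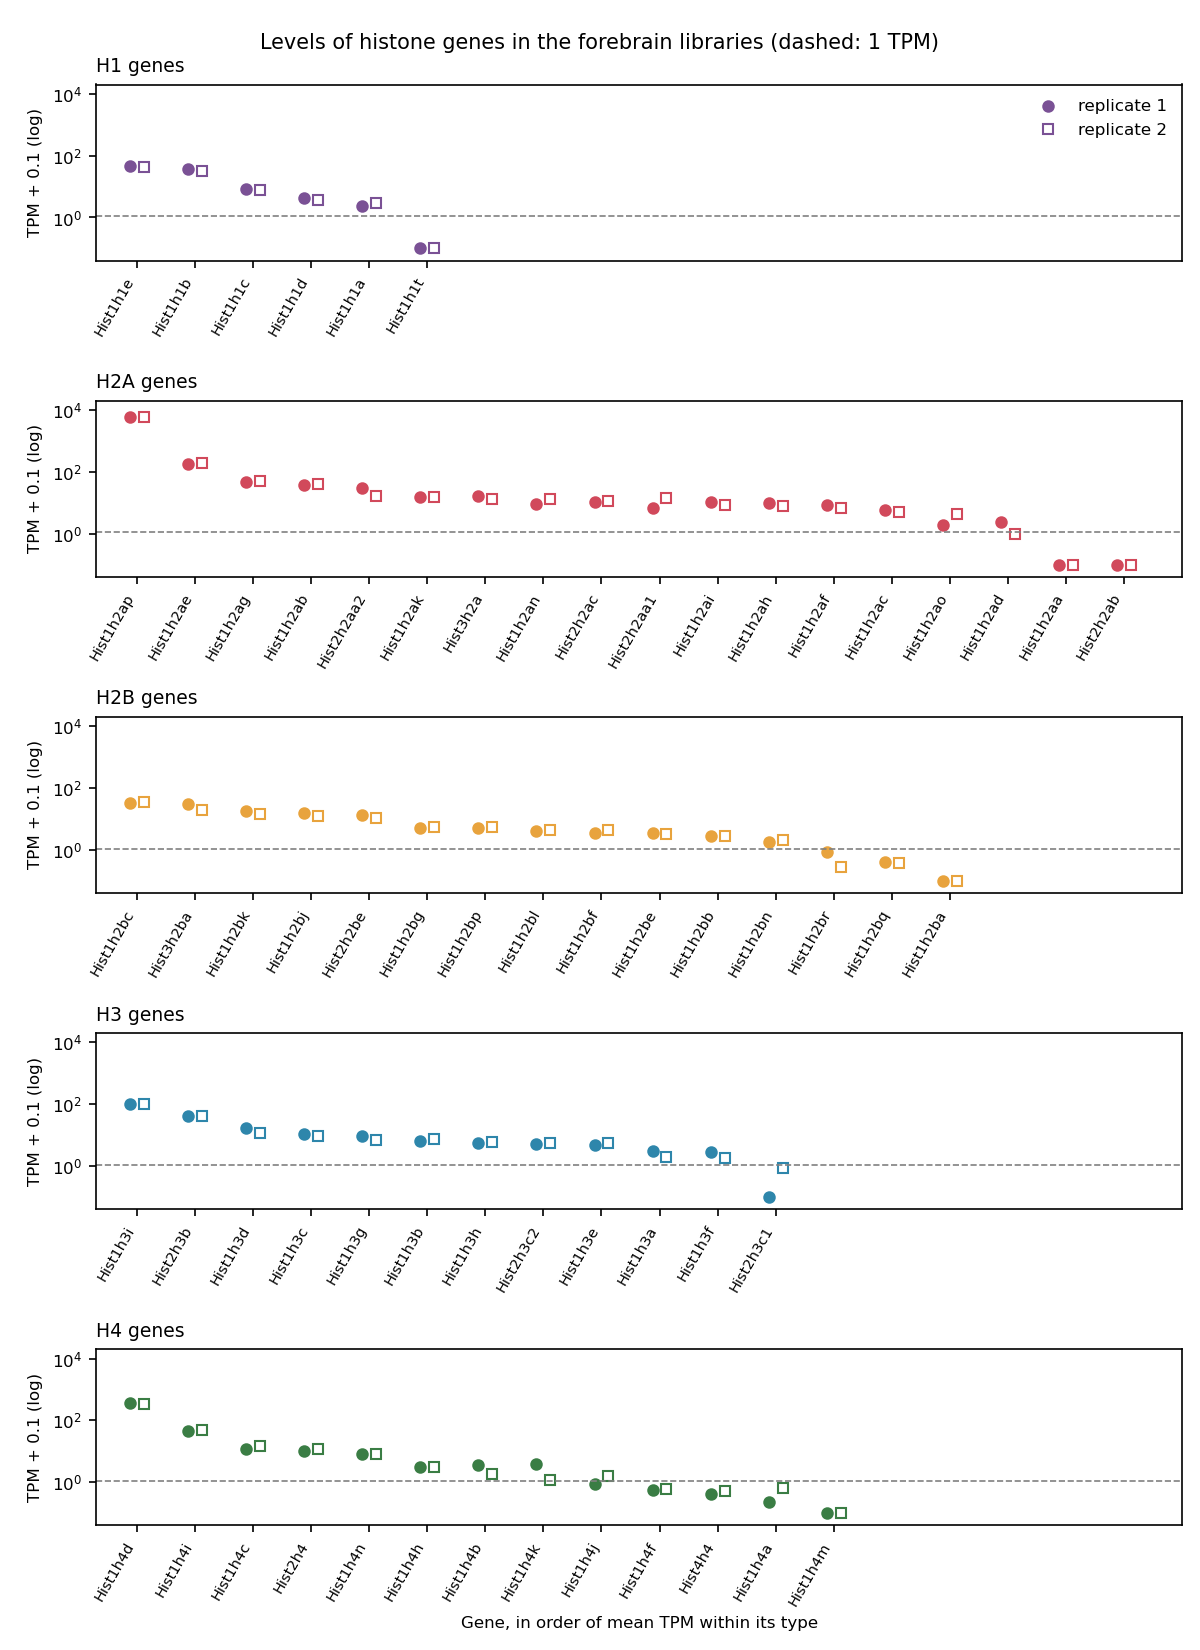
TPM + 0.1 on a log axis for each of the 64 histone genes, by histone type, with replicate 1 as filled circles and replicate 2 as open squares; the dashed line marks 1 TPM. Hist1h2ap stands at 5851 and 6007 TPM, above every other member, and 51 genes lie on or above the line in both libraries.

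H1 genes encode the linker histones that bind DNA between nucleosomes. Of the 6, 5 were detected, summing to 96.4 TPM in replicate 1 and 86.7 in replicate 2. Hist1h1e led with 45.3 and 41.4 TPM, followed by Hist1h1b with 36.4 and 31.6. Hist1h1b was among the few members with whole counts in both libraries, 649 and 507, with no sign of reads shared out between genes. Hist1h1c followed at 8.37 and 7.43 TPM, and Hist1h1a, at 2.26 and 2.81, was the lowest detected H1 gene. The order of these 4 was the same in both libraries. Hist1h1t, the testis H1 gene, had no count in either library.

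H2A and H2B form the dimers on the outer faces of the nucleosome. H2A genes made up 88.1% ± 0.570 of the members' TPM, with 15 of 18 detected. Hist1h2ap lies on chromosome 13 from 21833026 to 21833507 on the minus strand, and was at 5851 and 6007 TPM, from 62016 and 57394 counts. Hist1h2ae (23570517 to 23571220, minus strand) was at 181.2 and 196.5 TPM. Hist1h2ag followed with 47.1 and 48.8 TPM. Each of these differed by less than 10% between libraries, so the order of the 3 was the same in both. The lowest detected H2A gene was Hist1h2ao, at 1.80 and 4.19 TPM. Without Hist1h2ap the H2A genes summed to 391.7 and 400.9 TPM. By expected counts, Hist3h2a, of 2146 bases, exceeded Hist1h2ag, of 485 bases, with 941 and 665 against 503 and 470.

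H2B genes were lower as a group, with 12 of 15 detected and a sum of 135.6 TPM in replicate 1 and 119.7 in replicate 2. By TPM, Hist1h2bc led with 32.0 and 34.8. Hist3h2ba was at 30.9 TPM in replicate 1 and 19.4 in replicate 2, and Hist1h2bk at 17.4 and 14.3. The order of these 3 genes was the same in both libraries, although Hist1h2bc and Hist3h2ba were close in replicate 1. The lowest detected H2B gene was Hist1h2bn, at 1.74 and 1.96 TPM. By expected counts, Hist2h2be, of 2620 bases, exceeded Hist1h2bc, of 736 bases, with 917 and 686 against 564 and 553.

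H3 and H4 form the central tetramer of the nucleosome. Of 12 H3 genes 11 were detected, with a sum of 204.9 and 196.3 TPM. Hist1h3i (chromosome 13, 21782960 to 21783370, minus strand) was at 100.7 and 99.2 TPM, Hist2h3b at 41.3 and 40.9, and Hist1h3d at 16.2 and 11.9. Hist1h3f, at 2.83 and 1.69, was the lowest detected. Only 8 of 13 H4 genes were detected, yet their sum of 436.7 and 427.3 TPM was the second highest of the types. Hist1h4d (chromosome 13, 23581598 to 23582735, plus strand) supplied 350.7 and 334.3 TPM of it. Hist1h4i followed at 44.5 and 49.6 TPM and Hist1h4c at 11.7 and 14.7, while Hist1h4k was the lowest detected at 3.71 and 1.04. By expected counts, Hist2h4, of 1630 bases, exceeded Hist1h4c, of 395 bases, with 432 and 464 against 95.5 and 108.

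The sums of H2A and H4 rested mainly on their leading genes. The median gene of each type lay between 3.36 TPM (H4) and 9.80 (H2A) in replicate 1, and between 1.72 (H4) and 12.2 (H2A) in replicate 2. Without Hist1h2ap, H4 held 34.6% of the members' TPM, H2A 31.8%, H3 16.1%, H2B 10.2% and H1 7.33%. This omission was chosen after the values were seen.

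**Figure D2:**
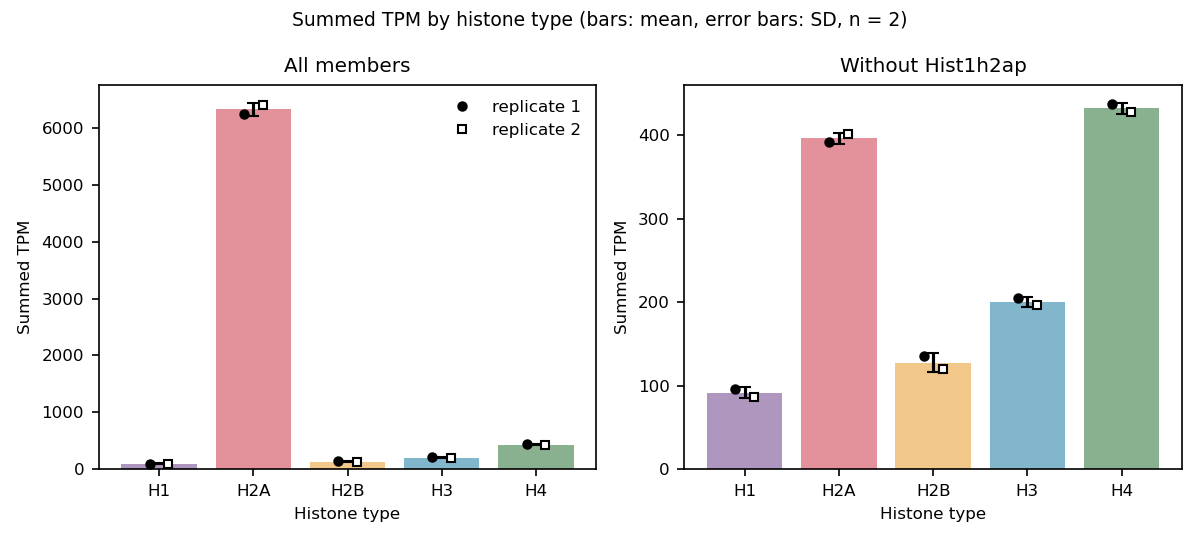
Summed TPM of the histone genes by type, with all members at left and without Hist1h2ap at right; bars are means, error bars SD (n = 2) and points the libraries. The H2A bar falls from 6325 to 396.3 TPM when Hist1h2ap is left out, below the H4 bar at 432.0.

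By position, the Hist1 cluster (chromosome 13, 21715763 to 23934851) held 42 of the 51 detected members and 97.8% of the TPM. It falls into 4 groups of genes more than 100000 bases apart. The first, of 17 genes around Hist1h2ap, summed to 6055 and 6207 TPM, and the second, of 5 genes around Hist1h2ag and Hist1h4i, to 134.0 and 133.0. The third, of 28 genes around Hist1h4d and Hist1h2ae, summed to 764.3 and 752.6 TPM. The last, from 23933773 to 23934851, holds the testis genes Hist1h2aa and Hist1h2ba, which had no count.

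The Hist2 and Hist3 clusters were detected at low to moderate levels, and the Hist4 gene did not reach 1 TPM. The Hist2 cluster (chromosome 3, 96219865 to 96269141) had 7 of 9 genes detected and summed to 115.5 and 112.3 TPM. Besides Hist2h3b, its detected genes were Hist2h2aa2 at 29.0 and 16.9 TPM, Hist2h2be at 13.1 and 10.9, and Hist2h4 at 10.2 and 12.2. Hist2h2ac was at 10.1 and 11.5 TPM, Hist2h2aa1 at 6.64 and 13.7, and Hist2h3c2 at 5.05 and 5.46. The Hist3 cluster (chromosome 11, 58948920 to 58956830) has the H2B gene Hist3h2ba and the H2A gene Hist3h2a, which was at 16.6 and 13.0 TPM. The lone gene of the Hist4 cluster, Hist4h4 (chromosome 6, 136801553 to 136804415), stayed under the limit at 0.32 and 0.42 TPM, from whole counts of 25 and 29. Its annotated length is 2879 bases. Hist1h2bn, of 381 bases, passed the limit from 13.6 and 13.8 counts, so detection depended on annotated length as well as on counts.

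The 5 members without a count were the testis genes Hist1h1t, Hist1h2aa and Hist1h2ba, with Hist1h4m and Hist2h2ab. A count of 0 allows up to 3 counts, which was 0.172 to 0.380 TPM in replicate 1 and 0.191 to 0.422 in replicate 2, depending on length. That limit takes no account of reads shared between genes, and the deposited upper bound of posterior mean TPM was higher for 3 of the 5. It was 1.69 and 2.25 TPM for Hist1h4m, whose coding sequence equals that of Hist1h4n, 0.991 and 0.576 for Hist2h2ab, and 0.585 and 0.590 for Hist1h2ba. Of the other members under the limit in both libraries, Hist1h2bq, Hist1h2br, Hist1h4f, Hist1h4a and Hist2h3c1 lay between 0 and 0.79 TPM. Hist1h4j and Hist1h2ad reached 1 TPM in a single library, at 0.80 and 1.48 TPM for the first and 2.25 and 0.88 for the second.

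Many core histone genes of a type are close in sequence, and most detected members had counts that were at least partly estimates of shared reads. Counts were not whole for 47 of the 51 detected members (92.2%), beside 27.6% of detected protein-coding genes. The deposited posterior SD, the uncertainty of that sharing, exceeded 10% of the count in both libraries for 21 of 51 (41.2%), beside 0.950% of detected protein-coding genes. Whole counts above 0 in both libraries were found for Hist1h1a, Hist1h1b, Hist2h2be, Hist2h4 and Hist4h4. Identity was taken between coding sequences of the commonest length of a type, held by 15 H2A, 11 H2B, 12 H3 and 13 H4 genes. Its median was 96.4% for H2A (77.6% to 100%), 97.4% for H2B, 97.2% for H3 and 93.9% for H4 (85.3% to 100%). No pair of equal length exists among H1 genes. The 64 members have 59 distinct coding sequences, with 5 identical pairs.

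The uncertainty of sharing varied with how much of a gene's sequence was its own, with exceptions. For 42 members with a single transcript of the same length in M21, each stretch of 100 bases was searched for in all M21 transcripts. Of these, 20 had some unique stretches but under 50%, and their median posterior SD was 19.0% of the count (18 genes whose mean count reached 10). The 18 members with 50% or more had a median of 2.17% (14 genes), and the 3 with only unique stretches had an SD of 0. No stretch was unique to Hist2h2aa1, Hist2h2aa2, Hist2h3b or Hist2h3c1, whose median was 14.04%, lower than in the class with some unique stretches. Hist2h3b among these was at 2.59% and 2.85%.

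Hist1h2ap was another exception, with a small SD and few stretches of its own. Their coding sequences, of 393 bases, had 0 differences, and the stem-loop sequences printed above are the same. Of 383 stretches in Hist1h2ap, 353 were shared with Hist1h2ao, and the 30 unique ones began in its first 30 bases, where its model starts further upstream. The 28 unique stretches of Hist1h2ao lay at its 3′ end, where its model runs further. The pair summed to 5853 and 6011 TPM, with 1.80 and 4.19 TPM assigned to Hist1h2ao. The posterior SD was 0.131% and 0.133% of the count for Hist1h2ap but 144% and 90.0% for Hist1h2ao. Every stretch that tells the pair apart thus lay at an end of a model.

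Adenine content just before the stem-loop differed among members, a feature examined after the values were seen. Over the 38 members with a stem-loop, the 14 preceding bases held a median of 7 adenines, from 3 to 13. The 6 members with 9 or more were Hist1h2ap, Hist1h2ao, Hist1h2ae, Hist1h4d, Hist1h2ab and Hist1h2ad. They include the 3 leading members, whose values set the number 9, so the split is no comparison of levels. The other 3 were low or moderate: Hist1h2ao as above, Hist1h2ad at 2.25 and 0.88 TPM and Hist1h2ab at 38.7 and 39.2. Across these 38 genes, which share libraries and similar sequences, Spearman's rho between adenines and mean TPM was 0.29, and 0.12 without the 3 leading genes. The longest run was 12 adenines, in Hist1h2ap and Hist1h2ao, then 8 in Hist1h2ae. A run of 12 or more was present in 2 of 42 members searched (4.76%) and in 0.769% of 29502 M21 transcripts of 300 to 600 bases. A run of 8 or more was present in the same 2 of 42 members (4.76%) and in 3.10% of those transcripts. Hist1h2ae, with its run of 8, was not among the 42, because its transcript has another length in M21. Both lengths were set after the runs were seen, and the genes with 12 are the identical pair. The sources used here do not say whether cDNA synthesis was primed from poly(A) or at random, and the part of these adenines in the levels was not tested.

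**Figure D3:**
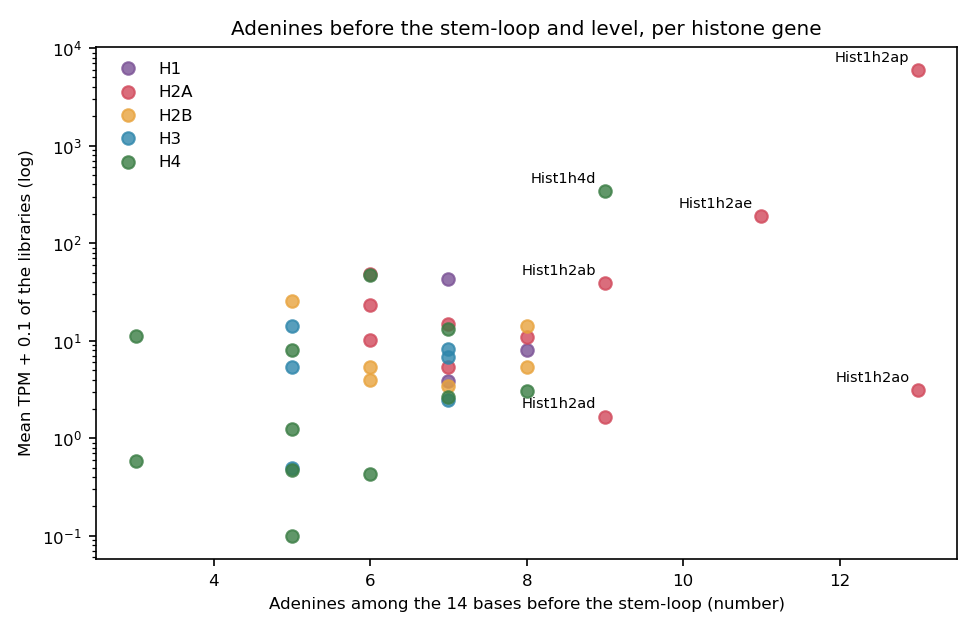
Mean TPM + 0.1 of the libraries on a log axis against the number of adenines in the 14 bases before the stem-loop, a point per gene for 38 histone genes, coloured by type. The 6 labelled genes have 9 or more adenines and run from 1.57 to 5929 TPM. The number 9 was set by the values of the 3 leading genes, so the split is no comparison of levels.

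The annotated ends of the transcripts also varied. Among the 42 members searched, 15 models ended within 80 bases of the stem-loop. None of those had a polyadenylation signal (AATAAA or ATTAAA, sense strand) in its last 50 bases. They were 391 to 620 bases long, and 14.01% of 29465 other M21 transcripts of 300 to 600 bases have the signal. Its absence from so few short models thus does not set them apart. Another 9 models ran 108 to 1643 bases past the stem-loop, and 8 of those had the signal. Of other M21 transcripts of all lengths, 33.7% also have it. The longer models were those of Hist1h1c, Hist1h4a, Hist1h4i, Hist1h4j, Hist2h3c1, Hist2h3c2, Hist2h4, Hist3h2a and Hist3h2ba. The median level was 7.92 TPM for the 15 and 7.90 for the 9, while their median mean counts were 92.5 and 304.5. Model length sets these classes and also divides the TPM, so the medians are no comparison of levels. A further 14 models stopped at the coding end and 4 had no stem-loop in their sequence. In Hist1h2be, the 2099-base transcript took 163.2 of 198.1 counts in replicate 1 and 140.4 of 161.8 in replicate 2. No coding end was recorded for this transcript, so the search after the stop codon could not show whether it holds a stem-loop. Of its 2000 stretches, 351 were shared with Hist1h1e.

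H2A and H2B genes often sit head to head and share the DNA between their starts. There were 12 such pairs, of 24 members, with starts 176 to 306 bases apart, and 11 had counts. In 10 of the 11 the same gene was higher in both libraries, the H2A gene in 7 and the H2B gene in 3. The difference exceeded 2-fold in both libraries in 6 pairs. Some orders rest on counts with a large uncertainty of sharing. The posterior SD was 144% and 90.0% of the count for Hist1h2ao, 49.0% and 43.0% for its partner Hist1h2bq, and 55.4% and 118% for Hist1h2ad, the partner of Hist1h2bf. Hist1h2ao and Hist1h2bq also have the same coding sequences as Hist1h2ap and Hist1h2br, so these pairs are not independent. Hist1h2ae stood 35.1-fold and 37.0-fold above Hist1h2bg, 176 bases away, which was at 5.16 and 5.31 TPM. Hist1h2bc stood 5.56-fold and 7.19-fold above Hist1h2ac, which was at 5.76 and 4.84 TPM, so the order was not fixed by type. Hist1h2ap at 5851 and 6007 TPM faced Hist1h2br at 0.78 and 0.18. For Hist2h2ac and Hist2h2be the order turned between libraries, with 1.30-fold and 1.05-fold differences.

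**Figure D4:**
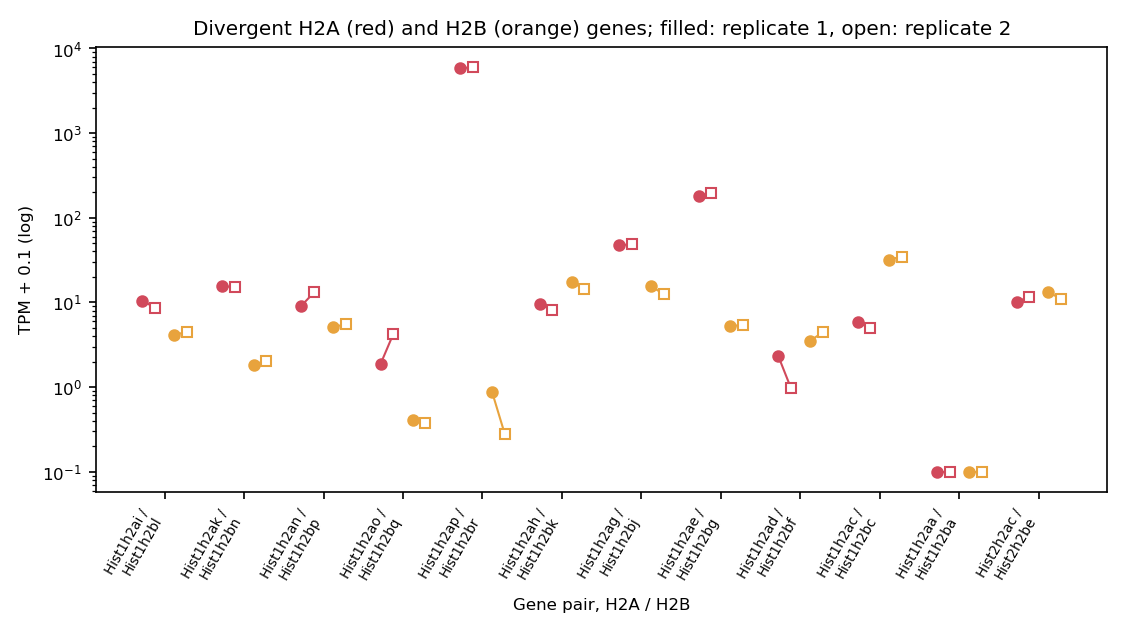
TPM + 0.1 on a log axis for 12 divergent gene pairs, H2A in red and H2B in orange, with replicate 1 filled and replicate 2 open. Genes that face each other at 176 to 306 bases differ by up to 37.0-fold in Hist1h2ae and Hist1h2bg and more in Hist1h2ap and Hist1h2br, while Hist1h2aa and Hist1h2ba are both at 0.

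Promoters shared motifs by type. Of the 64 members, 58 matched a RefSeq promoter (GRCm38.p6), and the 250 bases before the start were searched on both strands. CCAAT was present in 47 of 58 (81.0%), beside 34.5% of all 27025 promoters. It was found in every H1, H2A and H2B promoter matched, in 8 of 10 H3 promoters and in 3 of 12 H4 promoters. TATAAA was present in 29 of 58 (50%), beside 13.0% of all promoters. GGTCC, a core of the H4 element that the factor Hinfp binds, was present in 11 of 12 H4 promoters and 39.7% of all promoters, the same share as over all members. A match is a description of the letters and not a bound site. The 120 bases before the start of the leading H3, H2A and H4 genes with a promoter in the table are given with TATAAA and CCAAT, on either strand, in capitals.
Hist1h3i, chr13:21783398-21783517, minus strand: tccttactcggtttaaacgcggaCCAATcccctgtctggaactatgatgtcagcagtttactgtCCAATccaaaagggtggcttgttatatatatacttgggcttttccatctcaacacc
Hist1h2ae, chr13:23571221-23571340, minus strand: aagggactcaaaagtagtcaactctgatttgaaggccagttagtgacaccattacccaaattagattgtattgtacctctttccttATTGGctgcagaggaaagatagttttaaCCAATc
Hist1h4d, chr13:23581448-23581567, plus strand: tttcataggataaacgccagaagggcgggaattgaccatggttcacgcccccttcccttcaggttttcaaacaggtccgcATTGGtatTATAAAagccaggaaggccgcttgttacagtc
The Hist1h2ae stretch lies between this gene and Hist1h2bg, whose levels differed most among the pairs detected on both sides.

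Genes listed as replication-independent histones, whose mRNAs are mostly polyadenylated, were compared with the members in the same libraries. The list includes H2afx, whose 443.8 and 451.3 TPM are the list median. Whether its mRNAs carry a tail was not tested here. All 11 of those listed were detected, led by H2afz (3132 and 3115 TPM), a replacement H2A, and H3f3a (2225 and 2077), which encodes a replacement H3. H3f3b followed at 1356 and 1368 TPM, H2afv at 710.2 and 719.9, and H2afy, the macroH2A gene, at 469.2 and 477.6. The median of log2(TPM + 0.1) was 6.17 ± 0.0057 higher for these genes than for the members, a 71.9-fold difference. This SD is between libraries and does not measure the spread among genes. Mean TPM ran from 17.1 to 3123 for these genes and from 0 to 5929 for the members, so the groups overlapped. The gap was 7.77 ± 0.134 on the log2 scale by CPM, which is not adjusted for length. By sum the gap was small: 9335 and 9213 TPM against 7116 and 7237, a ratio of 1.31 and 1.27, which was 7.38 and 7.48 without Hist1h2ap.

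The genes that make and handle histone mRNA and protein were all detected. For 3′ end processing and decay, the 17 names listed stand for 16 genes, as Ars2 is another name of Srrt. All 16 reached 1 TPM, with a median of 43.0 ± 0.184. Slbp was at 292.9 and 314.2 TPM, Srrt at 128.1 and 135.4, Ncbp2 and Ncbp1, the cap-binding subunits, at 126.9 ± 3.16 and 119.6 ± 0.0636, and the endonuclease gene Cpsf3 at 108.3 ± 2.64. The lowest were Zfp473 at 3 and 3.68 and Lsm11, a subunit of the U7 particle, at 4.96 and 5.54. All 8 genes of histone transcription were detected, among them Ccne1 (98.9 and 98.9 TPM), Cdk2 (94.0 and 95.6), Casp8ap2, Ccne2 and E2f1. Npat, the coactivator of histone genes, was at 17.4 and 16.7, and Hinfp at 18.4 and 17.7.

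Histone chaperones had a median of 175.2 ± 0.491 TPM, and all 16 listed were detected. Npm1 was at 1252 and 1440 TPM, followed by Rbbp4, Ssrp1, Nap1l1 and Nasp, the chaperone of soluble H3 and H4, at 299.3 and 321.4. All 15 S phase genes were detected, with a median of 260.7 ± 12.4 TPM, led by Rrm2 (706.3 and 707.2) and Pcna (397.7 and 412.2). The median of the members was 6.14 ± 0.106 TPM, lower than that of each of these lists in both libraries.

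The members were compared between the pools. Library sizes were scaled by TMM, and 39 members averaged at least 50 counts. Of these 1 (2.56%) differed over 2-fold, beside 0.585% of the 13842 genes so compared. This was Hist2h2aa1, 2.05-fold higher in replicate 2 (95% interval 1.58 to 2.68), from 89.4 and 166.5 counts. Over all genes so compared, 0.238% were over 2-fold higher in replicate 2 and 0.347% in replicate 1, where no member was. With at least 10 counts on average, 6 of 57 members differed over 2-fold, beside 3.28% of genes, and with any count above 0, 7 of 59, beside 19.6%. Its identical partner Hist2h2aa2 went the other way, 1.73-fold higher in replicate 1, from 344.5 and 181.3 counts. The log2 ratio of their summed counts was -0.18, smaller than that of either gene, and their TPM summed to 35.7 and 30.6. Neither gene has a stretch of sequence of its own, and the posterior SD of Hist2h2aa1 was 34.0% and 20.6% of its count.

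Of the 39 members 23 (59.0%) were lower in replicate 2, beside 49.3% of all genes so compared. With scaling by spike-in totals, 16 of the 39 members were lower, beside 2168 of the 13842 genes (15.7%). The median log2 ratio was -0.05 for members and 0.00 for all genes, and scaling by spike-ins, which moves every gene alike, put these at 0.12 and 0.17. For 4 of the 39 members (10.3%), beside 13.5% of genes so compared, the deposited intervals of posterior mean TPM, whose level is not stated, did not overlap between libraries. Hist3h2ba was 1.61-fold higher in replicate 1 (1.37 to 1.88), Hist3h2a 1.29-fold (1.16 to 1.42) and Hist2h2be 1.22-fold (1.10 to 1.34). Erythroid and neuronal markers were also lower in replicate 2, and their part in these differences was not tested. Hist1h2ap was 1.02-fold higher in replicate 2 (1.01 to 1.03).

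**Figure D5:**
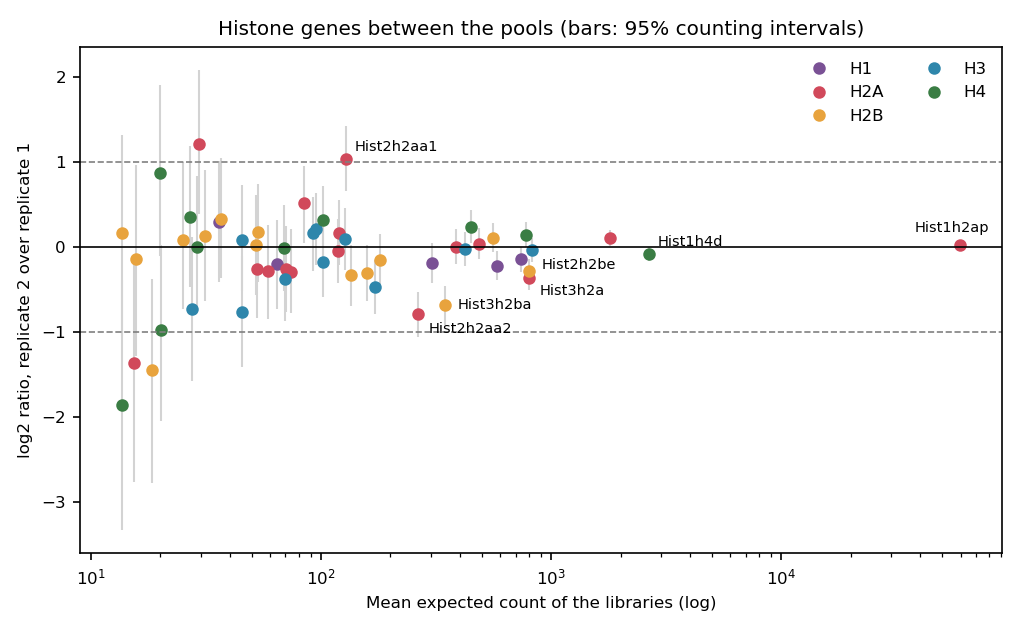
Log2 ratio of replicate 2 over replicate 1 after TMM scaling against mean expected count on a log axis, for histone genes averaging at least 10 counts and counted in both libraries; bars are 95% exact binomial intervals, dashed lines mark 2-fold. Hist2h2aa1 and Hist2h2aa2 lie on opposite sides of 0, and Hist3h2ba, Hist3h2a and Hist2h2be lie below it.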

How the data were processed

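The authors deposited a gene and a transcript table per library, with the assembly mm10 and annotation M4 per the labels' accompanying notes; the sources used here do not name the aligner or the quantification tool. The deposited expected counts are estimated reads, often not whole. In the authors' TPM values, all 69691 rows including spike-ins make up the total. The deposited posterior mean TPM and its interval bounds, the posterior SD of counts, the FPKM values and each transcript's percent of its gene come from the same tables, per the file headers; FPKM was not used. Effective length was length minus 99 bases in nearly all rows.

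Members and lists were chosen with earlier results of these data known. Named members were the 3 highest and the lowest detected of each type, detected members of Hist2, Hist3 and Hist4, members without a count, germline members and those over 2-fold apart; for other lists, up to 5 of highest level. Others were named after their values were seen. Detection meant 1 TPM or more in both libraries, which takes more counts for a gene of greater annotated length. Counts were rounded for edgeR 4.0.16 (R 4.3.3), which gave TMM factors over genes with at least 10 counts per library; DESeq2 1.42.0 size factors were an alternative. Ratios used unrounded expected counts plus 0.5, with 95% exact binomial (Clopper-Pearson) intervals. A count was called whole within 0.005. The ratio step was tested on simulated data. Python 3.11.15 with pandas 2.3.3 and scipy 1.17.1 was used. Depth was 43021202 and 39215064 expected counts, and 3 counts were the limit allowed by a count of 0.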

Additional observations from a re-analysis of the deposited data

Results flagged for a closer look

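The rows of 3 genes named as cluster pseudogenes, which entered no comparison, held more than the 3 counts that a count of 0 allows. Hist1h2aj, annotated as an unprocessed pseudogene, had 105.7 expected counts in replicate 1 and 126.9 in replicate 2. Its deposited posterior SD was 35.3 and 29.8 counts. Hist1h2al, a processed pseudogene, had 12.4 and 7.59 expected counts. Hist3h2bb-ps, a processed pseudogene, had 11.1 and 4.45 expected counts. At 15.1 and 20.1 TPM, Hist1h2aj lay in the range of the moderately expressed H2A members.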

How the results depend on the processing

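No paired analysis was possible because both libraries form a single group. The count of detected members was 53 at 0.5 TPM, 36 at 5 TPM, 52 with posterior mean TPM and 52 to 52 leaving out a replicate. The members' share of TPM was 0.718% ± 0.0086, and 0.703% with posterior mean TPM, 0.181% of expected counts, 0.775% over Ensembl rows only and 0.125% without Hist1h2ap; leaving out a replicate gave 0.712% to 0.724%. The log2 gap between replication-independent genes and members was 6.19 and 5.98 with pseudocounts of 0.01 and 1, 6.16 with means, 7.77 with CPM, 6.10 with posterior mean TPM and 5.65 among detected genes; leaving out a replicate gave 6.16 to 6.17. Members over 2-fold apart numbered 6 at a mean count of 10 (beside 3.28% of genes) and 7 without a minimum (beside 19.6% of genes with any count), among them Hist1h4k, Hist1h2ao, Hist1h2br and Hist1h2ad. By expected counts H1 held 2.31%, H2A 86.1%, H2B 3.24% and H4 5.59% of the members' signal. Leaving out Hist1h2ap, a choice made after the values were seen, gave H1 7.33%, H2A 31.8%, H2B 10.2%, H3 16.1% and H4 34.6%. The median log2 ratio between libraries was -0.06 with total counts, -0.05 with DESeq2 size factors, 0.12 with spike-in totals, -0.03 at a mean count of 10 and -0.22 over members with whole counts. Leaving out a replicate gave type shares of 1.20% to 1.35% for H1, 87.7% to 88.5% for H2A, 1.65% to 1.90% for H2B, 2.71% to 2.88% for H3 and 5.90% to 6.14% for H4. For members with few counts, the counting intervals limit any comparison between libraries.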
